A study of Mus musculus with 77 samples.

Results

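The livers compared here came from wild-type control mice of 2 knockout colonies, killed at ZT12, the hour of lights off. They are the *Aco1*+/+ mice of the *Aco1* (IRP1) line and the *Ireb2*+/+ mice of the *Ireb2* (IRP2) line, 3 of each, and make up 6 of the 24 mice and 12 of the 48 libraries of the study. By their labels they are the wild-type mice of either line at ZT12. The other mice were homozygous knockouts of the same lines, *Aco1*-/- and *Ireb2*-/-, and mice of all 4 genotypes at ZT5, again 3 of each. All control mice are labelled +/+ at the locus of their own line, and all were healthy male mice of 12 to 24 weeks kept on a C57BL/6J background with alternating light and dark. Each liver gave 1 library of ribosome-protected fragments (RPF) and 1 of total RNA. The labels do not give the genotype at the other line's locus. The comparison asks how far the wild-type controls of separate colonies lay apart. Line, colony and breeding history go with the group in all 6 mice, the sources used here name no batch of sampling or library preparation that crosses the groups, and line and batch cannot be told apart. The labels do give every library of both lines a first run with the same run code, so first runs alone compare the lines within that code, but a further number in the deposited names, whose meaning is not given, differs between the lines within it. Every difference below is a difference between lines in that sense. The sources used here do not say that mice of one number were handled together or from how many litters they came.

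Ribo-seq counts the mRNA fragments protected by ribosomes from nuclease digestion, and their number relative to the mRNA is the translation efficiency (TE). In liver, ZT12 is the end of the rest phase, when mice have eaten little for hours and genes of fat oxidation run high before the night's feeding. The mRNAs for ribosomal proteins start with a run of pyrimidines, the 5′ terminal oligopyrimidine (TOP) tract, and feeding and growth signals acting through mTOR move them on to or off ribosomes together. The iron regulatory proteins IRP1 and IRP2 bind iron-responsive elements (IREs). In the 5′ UTR of ferritin mRNAs this blocks translation, and in the 3′ UTR of *Tfrc* it protects the mRNA.

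Values are normalised counts of coding sequence (CDS) scaled to library size (CPM), and TE is the log2 of RPF over RNA, whose zero is set by the scaling. All differences are log2 values of the *Ireb2* line minus the *Aco1* line, tested with edgeR's quasi-likelihood test in a fit of all 24 mice over 10696 genes, with Benjamini-Hochberg adjustment and a threshold of 0.05. RNA libraries held 2138408 to 6743885 counts and RPF libraries 4749586 to 11865142. The 6 *Aco1*+/+ libraries each had 2 sequencing runs, 12 in all, and the 6 *Ireb2*+/+ libraries had 8. The CDS took 93.2 to 95.6% of RPF counts and 58.3 to 61.9% of RNA counts. The Y-linked check genes, 4 in number, had counts in 6 of 6 RNA libraries. Hepatocyte markers were abundant in every liver, with a summed RNA level in *Ireb2*+/+ that was 0.897 times that in *Aco1*+/+ (p = 0.2, exact permutation test). All permutation tests are two-sided, and with 3 mice against 3 the smallest p they can give is 0.1. The ratios were 1.07 for Kupffer, 1.08 for sinusoidal endothelial and 1.00 for stellate cell markers. Smooth muscle markers, 5 genes passing the filter of 6 listed, summed to 67.3 to 89.0 CPM in *Aco1*+/+ and 90.8 to 148.2 in *Ireb2*+/+ RNA, without overlap. Pancreatic acinar markers lay near zero in all 6 livers, at 5.64 to 8.69 against 10.1 to 12.5 CPM, with *Cela3b*, *Try4*, *Cpa1* and *Amy2a5* at 0 in RNA. The part of these markers in the differences below was not tested. In bulk tissue, fewer cells of a type and less RNA per cell cannot be told apart.

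Across the 4423 genes with a mean RNA level of at least 20 CPM, livers of different lines were little further apart than livers of one line. In RNA the median absolute log2 difference of a pair of livers was 0.192 within the *Aco1* line, 0.185 within the *Ireb2* line and 0.211 between lines. In RPF the same medians were 0.138, 0.169 and 0.172. TE showed the widest gap, with 0.188 and 0.186 within the lines and 0.245 between them. The gene's mean difference between lines was, at the median, smaller than its SD within a line in RNA (0.144 against 0.170) and RPF (0.124 against 0.147). It was larger in TE (0.190 against 0.176). A mean over mice varies less than a single mouse, so a difference smaller than the SD does not show that the lines were alike. Differences of more than 1 log2 unit between the means were rare, at 11 genes in RNA, 12 in RPF and 5 in TE.

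**Figure D1:**
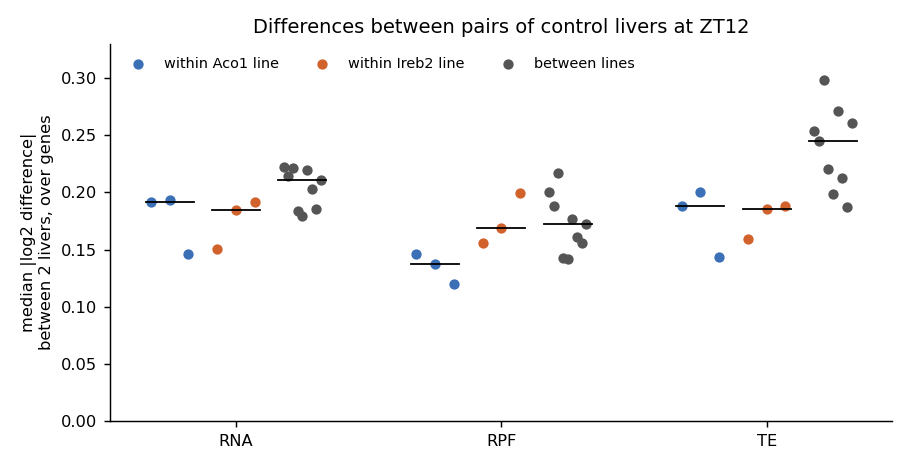
Median absolute log2 difference over 4423 genes for each pair of livers (y axis, log2 units) in RNA, RPF and TE, for pairs within the Aco1 line, within the Ireb2 line and between lines. Each dot is a pair and each black line the median of its pairs. Pairs between lines overlap the pairs within lines in RNA, RPF and TE, and their medians of 0.211, 0.172 and 0.245 lie above both within-line medians in each.

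Few single genes separated the controls of the 2 colonies past the threshold. In RNA, 0 of 10696 genes passed edgeR's test (0%), with 815 at an unadjusted p under 0.05 (7.62%), and 11 passed with DESeq2. In RPF, 3 genes passed (0.028%), 2 lower (0.0187%) and 1 higher (0.00935%) in the *Ireb2* line, and 762 had an unadjusted p under 0.05 (7.12%). In TE, 0 genes passed (0%) with edgeR, 1141 had an unadjusted p under 0.05 (10.7%), and 40 passed with DESeq2. The groups of 3 values did not overlap in 1650 genes in RNA (15.4%), 1604 in RPF (15%) and 2164 in TE (20.2%). A fit of only these 6 mice called 220 genes in TE, 128 higher and 92 lower in the *Ireb2* line. The same restricted fit called 7 genes in RNA and 5 in RPF.

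The 3 genes past the threshold in RPF were *Ehhadh*, *Slc39a4* and *Ncam2*, encoding a peroxisomal enzyme of fatty acid oxidation, a zinc importer and a neural cell adhesion protein. In each, every *Aco1*+/+ liver lay on one side of every *Ireb2*+/+ liver, and the RNA of the same livers lay on the same side without passing the test.

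*Ehhadh* (ENSMUSG00000022853, chromosome 16, 21761285 to 21787834, GRCm38.p6) carries out the hydration and dehydrogenation steps of peroxisomal beta-oxidation and is a classic target of PPARα. Its RPF level was 809.5, 888 and 756 CPM in the *Aco1*+/+ mice and 424, 428 and 499 CPM in the *Ireb2*+/+ mice. The groups were far apart, at 818 ± 66.4 (SD, n = 3) against 450.4 ± 42.5 CPM, a log2 difference of −0.86 (SE 0.146, edgeR adjusted p = 0.0253). Its RNA level was 454, 533 and 417 CPM against 243, 258 and 304 CPM, again without overlap, with a log2 difference of −0.80 (edgeR adjusted p = 0.201). The TE differed by −0.06, so RPF and RNA differed by nearly the same amount. At ZT5 the RPF levels were 508, 525 and 447 CPM in *Aco1*+/+ and 586, 562 and 613 CPM in *Ireb2*+/+, with no overlap in the other direction (0.25, edgeR adjusted p = 0.336). The line difference at ZT12 therefore differed from that at ZT5 by −1.11 (SE 0.205, edgeR adjusted p = 0.0343). The knockout livers of the same lines at ZT12, which did not enter this contrast, had *Ehhadh* RPF means of 991 ± 173 CPM in *Aco1*-/- and 518 ± 72.4 CPM in *Ireb2*-/-.

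*Slc39a4* (ENSMUSG00000063354, chromosome 15, 76612383 to 76618506) encodes ZIP4, which brings zinc into cells. Its RPF level was 164, 135.2 and 186 CPM in *Aco1*+/+ and 60.03, 100.1 and 47.3 CPM in *Ireb2*+/+ livers, or 162 ± 25.5 against 69.1 ± 27.6 CPM. The difference was −1.24 (SE 0.211, edgeR adjusted p = 0.0253), and *Ireb2*+/+ replicate 2 lay nearest to the other line. RNA gave 73.3, 59.1 and 73.9 against 26.6, 49.9 and 32.9 CPM (−0.87). Unlike *Ehhadh*, *Slc39a4* differed by a like amount at ZT5, where other mice of the same lines had 164, 148.5 and 141 against 74.4, 67.0 and 73.2 CPM (−1.08, edgeR adjusted p = 0.018). The difference between the timepoints was −0.16 (edgeR adjusted p = 0.898). In the knockouts at ZT12 the RPF means were 139 ± 24.3 CPM in *Aco1*-/- and 96.3 ± 9.32 CPM in *Ireb2*-/-.

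*Ncam2* (ENSMUSG00000022762, chromosome 16, 81200697 to 81624290) was the one gene higher in the *Ireb2* line. Its RPF level was low, at 3.75, 3.92 and 3.00 CPM in *Aco1*+/+ and 10.6, 9.98 and 11.9 CPM in *Ireb2*+/+ livers, resting on 25 to 115 counts a library. The difference was 1.62 (SE 0.295, edgeR adjusted p = 0.0267). RNA gave 3.62, 4.34 and 4.09 against 11.04, 11.4 and 8.38 CPM (1.36, edgeR adjusted p = 0.267). At ZT5 *Aco1*+/+ RPF levels were 5.13, 6.31 and 12.7 CPM, so that they overlapped the 7.96, 11.3 and 8.98 CPM of *Ireb2*+/+ (0.40, edgeR adjusted p = 0.451). The test of the change between timepoints did not pass (1.22, adjusted p = 0.28).

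None of the 3 calls held in every fit with a mouse left out, while the directions did. Leaving out any 1 of the 6 mice left *Ehhadh* with edgeR adjusted p between 0.0574 and 0.155 and *Ncam2* with 0.0642 to 0.396, and *Slc39a4* passed in 2 of these 6 fits. The RPF differences in these fits were −0.94 to −0.80 for *Ehhadh*, −1.60 to −1.02 for *Slc39a4* and 1.51 to 1.70 for *Ncam2*. Within the run code that both lines share, 0 genes passed in RNA, 2 in RPF and 0 in TE, where *Ehhadh* (−0.85) and *Slc39a4* (−1.24) had an edgeR adjusted p of 0.00993 in RPF and *Ncam2* (1.57) one of 0.339. *Ehhadh* passed in 9 of 9 other alternatives, *Slc39a4* in 6 of 9 and *Ncam2* in 6 of 8.

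**Figure D2:**
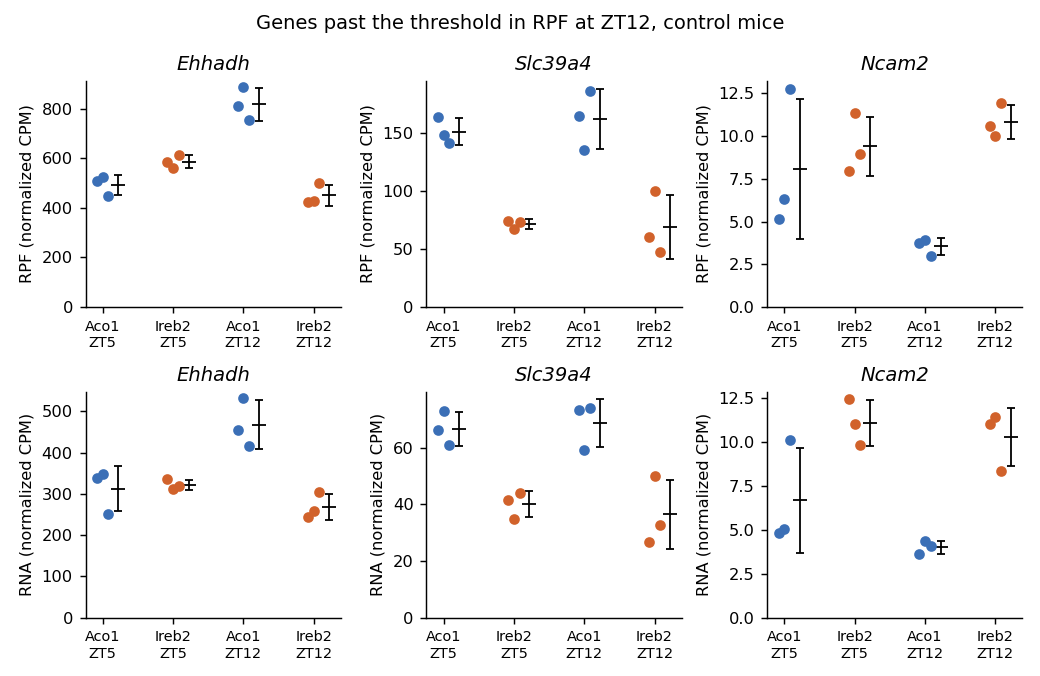
RPF and RNA levels (y axis, normalised CDS CPM) of Ehhadh, Slc39a4 and Ncam2 in the 12 wild-type livers by line and timepoint, on linear axes from 0. Points are mice, and the bars beside them give the mean and SD of 3 mice. At ZT12 the points of the lines do not overlap in any panel, with Ehhadh at 424 to 499 CPM of RPF in the Ireb2 line against 756 to 888 in the Aco1 line.

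*Ehhadh* belongs to a list of 26 genes that fasting or PPARα raises in liver, of which 25 were tested. In RPF 17 of them had lower and 8 had higher means in the *Ireb2* line, with a median of −0.25 against −0.0049 over all genes tested. Of these 25, 8 had an unadjusted p under 0.05 on the lower side (3.91% of all genes) and 1 on the higher side (3.22%), 10 did not overlap on the lower side (8.42%), and *Ehhadh* alone passed the adjusted test. *Igfbp1*, a secreted binder of insulin-like growth factors that insulin represses, had 176, 92.3 and 130 CPM of RPF in *Aco1*+/+ and 27.4, 23.0 and 31.2 CPM in *Ireb2*+/+ livers. These ranges were far apart, but the spread of *Igfbp1* among all mice was wide and the difference of −2.28 did not pass (SE 0.706, edgeR adjusted p = 0.561). *Vnn1*, a pantetheinase, had 101, 60.02 and 60.8 against 28.1, 47.9 and 42.8 CPM (−0.90, SE 0.278). The omega-hydroxylase *Cyp4a31* had 8.40, 12.4 and 10.1 against 1.68, 2.30 and 3.84 CPM (−1.84, SE 0.561), and its near-identical neighbours may share its reads. Among those neighbours *Cyp4a10* had 313, 401 and 272 against 52.6, 49.7 and 180 CPM (−1.79), where *Ireb2*+/+ replicate 3 was the high one of its group. *Cyp4a14* had 584, 882 and 259 against 93.2, 34.1 and 262 CPM, and there the same mouse overlapped the other line. A milder difference was seen in the fatty acid carrier *Fabp1* (6973, 7232 and 7473 against 4947, 5601 and 5966 CPM, −0.39). *Pck1*, the gluconeogenic enzyme, did not share this pattern, with 3744, 7151 and 5476 against 5751, 5199 and 5963 CPM (0.05). In RNA the median of the list was −0.05, and −0.30 without *Ireb2*+/+ replicate 3. At ZT5 the RPF median was 0.05.

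Most ribosomal protein mRNAs had a higher mean RPF level in the *Ireb2* line, but none passed the test and the lines overlapped in their summed RPF level. Of 82 cytosolic ribosomal protein genes, 74 were tested. In RPF 68 of them had higher and 6 lower means in the *Ireb2* line, with a median of 0.46 against −0.0049 over all genes, and in TE 70 were higher and 4 lower, with a median of 0.55 against −0.0088. Their RNA did not differ in one direction, with 31 higher, 43 lower and a median of −0.04. None passed the adjusted test with edgeR in the fit of all mice, whereas in TE 7 passed in the fit of only the 6 mice and 1 in that of the 12 wild-type mice. In RPF 20 of the 74 (27%) had an unadjusted p under 0.05 on the higher side in RPF against 3.22% of all genes, and 19 (25.7%) did so in TE against 5.53%. Groups did not overlap on the higher side in 17 of the 74 in RPF (6.57% of all genes) and in 20 in TE (9.89%). Many of these genes have processed pseudogenes, so their counts are uncertain where reads were shared.

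The genes named here were chosen for small p-values and hold the highest differences of the list, those of *Rpl13* in both RPF and TE. *Rpl30*, a protein of the large subunit, had 37.6, 64.3 and 44.9 CPM of RPF in *Aco1*+/+ and 117, 84.7 and 85.2 CPM in *Ireb2*+/+ livers (0.96, SE 0.317), while its RNA was 58.4, 45.6 and 50.9 against 66.3, 49.0 and 56.7 CPM. *Rpl13* had 1.16, 4.87 and 2.76 against 11.5, 12.5 and 5.50 CPM of RPF (1.69, SE 0.535). In both *Aco1*+/+ replicate 1 was the lowest of the 6 livers and no *Aco1*+/+ liver reached an *Ireb2*+/+ liver, and the edgeR adjusted p of both, 0.561, was above the threshold. In TE the leading genes were *Rpl13a* (1.31, SE 0.369, adjusted p = 0.171), *Rpl13* (2.19, SE 0.602), *Rpl39* (1.37, SE 0.389) and *Rps29* (1.65, SE 0.512).

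Taking the median log2 TE of the ribosomal protein mRNAs in each liver, the *Aco1*+/+ mice had −0.85, −0.03 and −0.56 and the *Ireb2*+/+ mice 0.43, 0.15 and −0.03. The groups just failed to meet, since *Aco1*+/+ replicate 2 lay at −0.034 and *Ireb2*+/+ replicate 3 at −0.027. The means were −0.48 ± 0.41 and 0.19 ± 0.23 (SD, n = 3), a difference of 0.67 with p = 0.1, the smallest this exact permutation test can give. Without 1 mouse at a time the difference ranged from 0.48 to 0.89. The summed RPF level of these mRNAs was 2813 ± 627 against 3884 ± 629 CPM (exact permutation p = 0.2), and the summed RNA level 3717 ± 282 against 3632 ± 193 CPM (exact permutation p = 0.7). Of 17 translation factors with TOP mRNAs, 15 had higher means in RPF (median 0.37) and 14 in TE (median 0.34), with none past the adjusted test and 1 of 17 at an unadjusted p under 0.05 on each side in TE, against 5.53% of all genes on the higher side. Their median TE per liver ran from −0.41 to 0.53 in *Aco1*+/+ and from 0.37 to 0.53 in *Ireb2*+/+ mice (exact permutation p = 0.4), and without *Aco1*+/+ replicate 1 the median difference in TE was 0.09 and that in RPF 0.20. *Eif3e*, a subunit of the initiation factor eIF3, had TE values of −0.70, −0.56 and −0.65 against 0.14, 0.09 and −0.08 (0.69, SE 0.168, edgeR adjusted p = 0.104).

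The direction at ZT5, in other mice of the same lines, was the opposite one. There 0 of the ribosomal protein mRNAs had higher and 73 lower RPF means in the *Ireb2* line (median −1.11), and 31 passed the adjusted test on the lower side (1.93% of all genes). Their RNA means were also mostly lower there, in 66 of 74 (median −0.49), with none past the adjusted test. Of these, 38 had an unadjusted p under 0.05, against 1254 of the 10696 genes tested when both sides are counted. The RNA difference between timepoints was on the higher side in 65 of 74 (median 0.39). In the RPF test of the difference between timepoints, 73 of 74 were on the higher side at ZT12, 68 with an unadjusted p under 0.05 (5.71% of all genes on that side), with a median of 1.59. *Rps6*, *Rpl38* and *Rpl23a* passed that test in RPF, 3 of 74 against 0.0374% of all genes, and *Rpl14* in TE. The median TE per liver at ZT5 was −0.63 ± 0.28 in *Aco1*+/+ and −1.29 ± 0.58 in *Ireb2*+/+ (exact permutation p = 0.3). One ZT5 liver, *Ireb2*+/+ replicate 3, held pancreatic acinar transcripts at 13240 CPM of RNA and 24910 CPM of RPF, against 6.97 to 22.4 and 5.91 to 13.5 CPM in the other 5, and without it 11 ribosomal protein mRNAs passed on the lower side at ZT5 (0.234% of all genes), with a median of −1.27. Leaving out any 1 of the ZT5 mice gave 0 to 46 such calls, while the median stayed between −1.27 and −0.89. There were 0 without *Aco1*+/+ replicate 2 or *Ireb2*+/+ replicate 1 (0.00935% of all genes in each). There were 3 without *Aco1*+/+ replicate 1 (0.103%), 17 without *Ireb2*+/+ replicate 2 (0.86%) and 46 without *Aco1*+/+ replicate 3 (6.45%). In the test between timepoints 0 to 22 passed in these fits, with a median of 1.42 to 1.79. The 22 came without *Aco1*+/+ replicate 3, where 53 of all genes tested passed.

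Sequence around an annotated start of transcription is shown for 3 of the 4 ribosomal protein genes past the test of the timepoints. It covers 10 bases before to 20 bases after that start, 5′ to 3′ on the coding strand (RefSeq, GRCm38.p6), to let the pyrimidine tract be seen. The reference used held no start sequence for *Rpl23a*, so whether it has such a tract is not known here. Capitals mark a run that begins at the first C within 5 bases of the start to be followed by at least 4 further pyrimidines. In *Rpl38* and *Rpl14* pyrimidines also lie directly before the marked stretch. *Rps6* is at chr4:86857348-86857377 on the minus strand, *Rpl38* at chr11:114668570-114668599 and *Rpl14* at chr9:120571507-120571536 on the plus strand. The annotated *Rpl38* gene begins at 114667818, so the start shown for it lies inside the gene.
Rps6: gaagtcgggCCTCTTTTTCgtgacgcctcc
Rpl38: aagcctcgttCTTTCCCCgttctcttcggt
Rpl14: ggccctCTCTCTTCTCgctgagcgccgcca
Such a run was present at 30 of 65 annotated starts (46.2%) of the 54 tested ribosomal protein genes in the table, against 2167 of 10939 starts (19.8%) of all genes tested and 6027 of 32851 (18.3%) of all starts. The rule reads letters on the coding strand only and says nothing of which start these livers used.

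**Figure D3:**
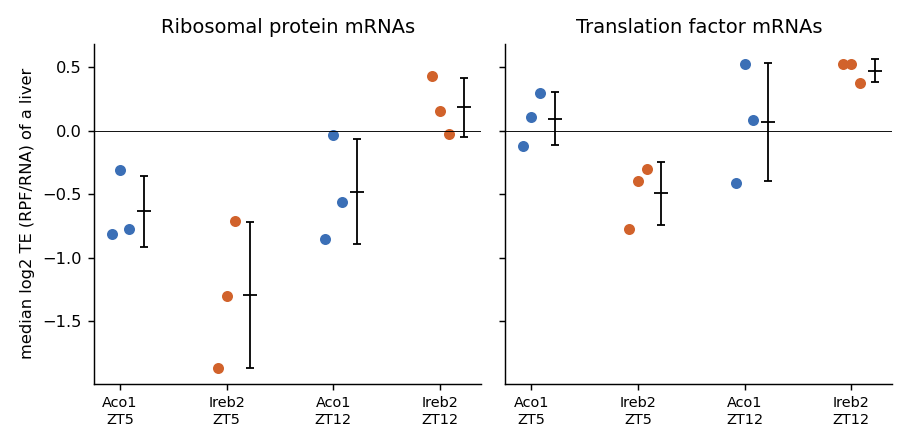
Median log2 TE (y axis, log2) of the 74 ribosomal protein mRNAs in one panel and of the 17 translation factor mRNAs in the other, in each wild-type liver by line and timepoint. Points are mice, and bars give the mean and SD of 3 mice. For ribosomal proteins at ZT12 the Aco1 line runs from −0.85 to −0.03 and the Ireb2 line from −0.03 to 0.43, whereas at ZT5 the Ireb2 line has the lower mean, −1.29 against −0.63, and the means for translation factors stand in the same order, 0.48 against 0.07 at ZT12 and −0.49 against 0.10 at ZT5.

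The iron-regulated mRNAs, the subject of the study, showed no difference past the threshold between the control lines, and the ferritins spread widely from liver to liver. Of 5 mRNAs with a 5′ IRE analysed here, 4 had higher TE in the *Ireb2* line, with a median of 0.44, and in RPF 5 of 5 had higher means (median 0.59, and 0.28 without *Ireb2*+/+ replicate 2). *Fth1*, the ferritin heavy chain, had TE values of −3.54, −2.18 and −2.03 in *Aco1*+/+ and −1.56, −1.20 and −2.32 in *Ireb2*+/+ livers (0.87, SE 0.492, edgeR adjusted p = 0.557). *Ftl1*, the light chain, had −4.08, −2.998 and −2.58 against −2.46, −1.55 and −3.23 (0.82, SE 0.724, adjusted p = 0.749). In both, *Aco1*+/+ replicate 1 was the lowest and *Ireb2*+/+ replicate 3 fell among the *Aco1*+/+ livers, and both ferritins have pseudogenes that may share their reads. Without 1 mouse at a time the *Fth1* difference ranged from 0.42 to 1.19 and that of *Ftl1* from 0.33 to 1.23.

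*Slc40a1*, the iron exporter ferroportin, had TE values of −0.67, −0.45 and −0.23 against 0.09, 0.15 and −0.28, with *Ireb2*+/+ replicate 3 again within the other group (0.44, SE 0.136, edgeR adjusted p = 0.212). In the fit of only these 6 mice its adjusted p was 0.0228. *Alas2*, the erythroid enzyme that starts heme synthesis, had −1.10, −0.68 and −0.50 against −0.26, −0.19 and −0.83 (0.35, adjusted p = 0.464, from 0.19 to 0.53 without *Aco1*+/+ replicate 1 and *Ireb2*+/+ replicate 3). *Epas1*, the hypoxia factor HIF-2α, differed by −0.19 in TE, and by −0.37 and −0.10 without *Aco1*+/+ replicates 1 and 3. The same mouse, *Ireb2*+/+ replicate 3, thus had the lowest TE of its group for *Fth1*, *Ftl1*, *Slc40a1*, *Alas2* and *Epas1*.

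Among mRNAs with a 3′ IRE, *Tfrc*, the transferrin receptor, had 60.002, 40.2 and 38.7 CPM of RNA in *Aco1*+/+ and 30.1, 20.4 and 50.9 CPM in *Ireb2*+/+ livers (−0.52, SE 0.467, adjusted p = 0.865, from −0.90 without *Ireb2*+/+ replicate 3 to −0.20 without replicate 2). *Slc11a2*, the iron importer DMT1, had 22.1, 14.6 and 23.3 against 11.04, 12.8 and 17.4 CPM (−0.55, edgeR adjusted p = 0.598). The highest *Tfrc* value among the *Ireb2*+/+ mice was that of replicate 3, the mouse with the lowest ferritin TE in its group.

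**Figure D4:**
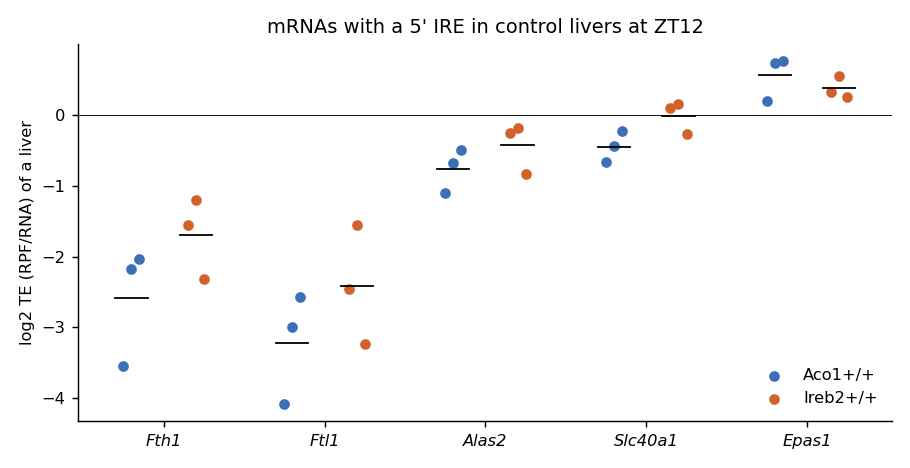
log2 TE (y axis) of 5 mRNAs with a 5′ IRE in the 6 wild-type livers at ZT12 by line. Points are mice and each line is the mean of 3 mice. Fth1 and Ftl1 spread over more than 1 log2 unit within each line and overlap between lines, with values from −3.54 to −1.20 and from −4.08 to −1.55.

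Of the loci targeted in the lines, *Aco1* was read at like levels in both control groups, while *Ireb2* overlapped in RNA and lay apart in TE. *Aco1* (ENSMUSG00000028405, chromosome 4, 40143265 to 40199009) had 320, 355 and 358 CPM of RNA in *Aco1*+/+ and 340, 317 and 358 CPM in *Ireb2*+/+ livers, a difference of −0.03, and its RPF differed by 0.0047. *Ireb2* (ENSMUSG00000032293, chromosome 9, 54862658 to 54912534) had 113, 166 and 171 against 141, 136 and 90.8 CPM of RNA (−0.28) and an RPF difference of 0.12. Without *Aco1*+/+ replicate 1 these were −0.45 and 0.01, and without *Ireb2*+/+ replicate 3 −0.12 and 0.24. Its TE did not overlap, at −0.99, −1.23 and −1.19 against −0.86, −0.74 and −0.54 (0.42, SE 0.165, edgeR adjusted p = 0.311). *Nnt*, a gene broken in C57BL/6J but not in some related substrains, had 51.5, 63.4 and 54.1 against 56.2, 48.7 and 52.2 CPM of RNA, with overlap (−0.12, edgeR adjusted p = 0.928, and −0.02 without *Aco1*+/+ replicate 2). It is one of 6 genes tested from a list of genes that differ between C57BL/6 substrains, of which 5 had higher RPF means in the *Ireb2* line (median 0.36, and 0.02 with first runs alone) and 4 had higher RNA means (median 0.03). *Mmrn1*, a multimerin, had 0.65, 0 and 0.72 against 0.96, 1.54 and 2.39 CPM of RPF (1.88, SE 0.635, edgeR adjusted p = 0.561), and *Dock2*, an exchange factor of leukocytes, 4.14, 5.00 and 5.88 against 6.24, 6.66 and 7.79 CPM (0.48, adjusted p = 0.708). Both lay apart in RPF and overlapped in RNA.

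Among regulators of iron, *Hamp*, the hormone hepcidin, had more RNA in each *Ireb2*+/+ liver (495, 566 and 537 against 665, 670 and 995 CPM, 0.54, edgeR adjusted p = 0.756). Its RPF did not follow, at 1670, 1324 and 1226 against 1341, 1205 and 1951 CPM, and its TE was lower without overlap, at 1.76, 1.23 and 1.19 against 1.01, 0.85 and 0.97 (−0.44, SE 0.135, adjusted p = 0.218). *Tfr2*, a transferrin receptor that takes part in hepcidin control, also had more RNA and a lower TE in each *Ireb2*+/+ liver, and unlike *Hamp* a lower RPF (765, 675 and 707 against 628, 662 and 600.1 CPM), with TE of 1.09, 0.81 and 0.71 against 0.43, 0.42 and 0.41 (−0.45, SE 0.117, adjusted p = 0.132). Of 8 heme synthesis genes, a list with *Alas1* and without the erythroid *Alas2*, 8 had lower RPF means in the *Ireb2* line (median −0.28, and −0.15 without *Aco1*+/+ replicate 1) and 7 had lower TE (median −0.33). *Alas2* lay on the other side, with an RPF difference of 0.51 and a TE difference of 0.35. *Alad*, which joins the precursor into porphobilinogen, had 337, 290 and 277 against 256, 238 and 236 CPM of RPF (−0.31, SE 0.132, edgeR adjusted p = 0.649).

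In RNA no gene passed the test, and the genes with the smallest p on either side are given by the rule for naming genes. *H2-Ab1* (chromosome 17, 34263227 to 34269418), the beta chain of an MHC class II molecule made by antigen-presenting cells, had 14.9, 11.9 and 17.3 CPM in *Aco1*+/+ and 26.1, 43.5 and 42.5 CPM in *Ireb2*+/+ livers. Its difference of 1.37 (SE 0.252) came close to the threshold, with an edgeR adjusted p of 0.0623. With TMM scaling that p was 0.0476, and in the fit of the 6 mice alone 0.00545. Its partners were looked at after these values were seen. Their RPF lay higher in *Ireb2*+/+ replicates 2 and 3 but not clearly in replicate 1. *Cd74*, the invariant chain, had 114, 113 and 108.4 against 116, 235 and 208 CPM, and *H2-Aa* had 32.3, 34.1 and 31.2 against 41.8, 87.8 and 70.2 CPM. *H2-Eb1* had 21.7, 21.5 and 20.7 against 15.6, 53.0 and 50.5 CPM. Summed Kupffer cell markers lay at 517 to 573 CPM of RNA in *Aco1*+/+ and 544 to 622 in *Ireb2*+/+, and summed lymphocyte markers at 0.87 to 1.61 and 0.64 to 3.51 CPM, a ratio of 1.95 (exact permutation p = 0.4) on 1 to 11 counts. Of the 9 lymphocyte markers listed in the files, *Trbc1*, *Trbc2*, *Igkc*, *Ighm* and *Trac* were at 0 in all 6 livers. Their part in the class II difference was not tested.

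The other genes on the higher side in RNA, beside *Ncam2*, were *Dop1b*, with 43.9, 47.998 and 50.3 against 82.8, 73.7 and 83.1 CPM (0.74, SE 0.183), *Pld2*, a phospholipase D, with 1.61, 3.47 and 3.46 against 5.02, 8.46 and 9.02 CPM (1.34), and *Ngfr*, a neurotrophin receptor, with 0.40, 0.43 and 1.26 against 5.02, 2.97 and 1.93 CPM (2.20), the last on 1 to 13 counts. The edgeR adjusted p was 0.267 to 0.28 for them. On the lower side, beside *Ehhadh* and *Slc39a4*, were the androgen-dependent omega-hydroxylase *Cyp4a12a*, with 224, 220.2 and 263 against 152, 161 and 83.8 CPM (−0.82, SE 0.182), *Nop58*, of the box C/D snoRNPs that modify rRNA, with 50.3, 27.6 and 33.3 against 20.6, 15.3 and 18.7 CPM (−1.03, SE 0.239), and *Mup3*, a major urinary protein, with 4540, 5335 and 5404 against 3595, 3538 and 2774 CPM (−0.62, SE 0.146). Their adjusted p was 0.201. *Cyp4a12a* and *Mup3* have close copies that may share their reads.

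*Cyp4a12a* is on a list of growth hormone and male-biased genes, of which 14 of 20 had lower RNA means in the *Ireb2* line (median −0.29), 15 of 20 in RPF (median −0.17). Without *Aco1*+/+ replicate 3 these medians were −0.08 and −0.02. *Mup3* is counted on another list, that of the major urinary proteins, which differed in both directions. Of 16 tested there, 7 had higher and 9 lower RNA means (median −0.09) and 11 had higher and 5 lower RPF means (median 0.30). Without *Ireb2*+/+ replicate 2 these medians were −0.69 and −0.09. With all mice in the fit, *Mup13* differed by 1.70 and *Mup5* by 1.10 in RNA, and these near-identical genes may share reads. *Cyp4a12b*, near-identical to *Cyp4a12a*, had 84.7, 72.5 and 76.7 against 24.5, 35.6 and 13.7 CPM of RPF (−1.70, SE 0.319, edgeR adjusted p = 0.111). *Nudt7*, a peroxisomal hydrolase, had 854, 696 and 898 against 525, 701 and 372 CPM of RNA (−0.61, SE 0.161). In all of *Cyp4a12a*, *Cyp4a12b*, *Mup3* and *Nudt7* the lowest of the 6 RNA levels was that of *Ireb2*+/+ replicate 3. On the list of female-biased genes 6 were tested, and the same mouse was the highest in several: *Cyp17a1*, a steroid hydroxylase, had 5.69, 9.06 and 13.7 against 11.3, 14.8 and 37.7 CPM of RPF, and *Cyp2a4*, another steroid hydroxylase, with a near-identical neighbour that may share its reads, had 2.84, 3.92 and 1.44 against 5.04, 1.02 and 9.04 CPM. The RPF median of these 6 genes was 0.91, with none past the adjusted test. Leaving that mouse out, this median was 0.26 and the *Cyp4a12a* RNA difference −0.59.

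TE had more genes near the threshold than RNA. The 5 with the smallest p on the higher side, among genes without overlap, are given here. *F9*, coagulation factor IX, had log2 TE of −0.09, 0.03 and 0.04 in *Aco1*+/+ and 0.61, 0.48 and 0.64 in *Ireb2*+/+ livers (0.58, SE 0.12). *Slco1b2*, a bile acid and drug importer, had −0.07, −0.14 and −0.12 against 0.35, 0.25 and 0.46 (0.46, SE 0.103). *Mup3*, the sulfotransferase *Sult2a8* and the ketosteroid reductase *Akr1c6* differed by 0.47, 0.46 and 0.42, and all 5 had an edgeR adjusted p of 0.077. *Slco1b2* and *Akr1c6* passed at ZT5 in other mice, with 0.50 (adjusted p = 0.011) and 0.35 (adjusted p = 0.045), and *Slco1a1*, a transporter related to *Slco1b2*, had 0.44 at ZT12 (adjusted p = 0.145) and 0.59 at ZT5 (adjusted p = 0.011). These ZT5 calls were not stable. In TE at ZT5, 0 genes passed without the liver that held acinar transcripts, with unpaired libraries or with limma. The replicate block, fitted in TE with limma on wild-type mice alone, also gave 0.

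On the lower side *Actb*, cytoplasmic beta-actin, had log2 TE of 1.34, 1.10 and 1.01 against 0.55, 0.64 and 0.45 (−0.60, SE 0.125, edgeR adjusted p = 0.077). *Apoe*, the apolipoprotein of remnant clearance, had 1.57, 1.53 and 1.41 against 1.00, 1.26 and 1.02 (−0.41, SE 0.093, adjusted p = 0.0955). *Mid1ip1*, which activates acetyl-CoA carboxylase, *Ywhag*, a 14-3-3 protein, and *Aacs*, which activates acetoacetate, differed by −0.82, −0.64 and −0.55 (adjusted p = 0.104). Each of these 10 genes passed in the fit of the 6 mice alone.

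Several further lists had medians away from 0 with no member past the adjusted test. Of 13 apolipoproteins 9 had lower TE (median −0.18), among them *Apom* (1.59, 1.52 and 1.35 against 1.06, 1.14 and 1.06), *Apoc3* and *Apof*. Of 19 lipogenic genes 16 had lower TE (median −0.14), led by the glycolytic enzyme *Pklr* with 1.16, 1.12 and 1.05 against 0.74, 0.80 and 0.70 (−0.36, SE 0.103, edgeR adjusted p = 0.163). Of 16 genes of bile acid synthesis and transport 11 had higher TE (median 0.18). Of 14 heat shock genes 9 had lower RNA (median −0.29), with *Hspa8*, the constitutive chaperone Hsc70, at 131.3, 106 and 123.2 against 70.8, 68.9 and 86.3 CPM (−0.68, SE 0.175, edgeR adjusted p = 0.28) and its co-chaperone *Dnaja1* at −0.94. The 12 mitochondrially encoded mRNAs tested had lower RNA means in 12 of 12 (median −0.29), and 32 of 36 nuclear subunits of complex I had lower RPF means (median −0.10). Immediate early genes had higher RNA means in 13 of 13 (median 0.29), where *Myc* was highest in *Ireb2*+/+ replicate 1, at 19.1 CPM, and *Egr1* in replicate 2, at 9.15 CPM. Of 20 core clock genes 15 had higher RNA means (median 0.12), with *Nr1d1*, encoding the repressor REV-ERBα, at 17.3, 12.6 and 12.6 against 19.6, 37.7 and 17.4 CPM (0.92, adjusted p = 0.652). With 1 mouse left out, the lipogenic TE median came to −0.09 and the clock RNA median to 0.07 (both without *Ireb2*+/+ replicate 3) and the heat shock RNA median to −0.18 (without *Aco1*+/+ replicate 3), and the bile acid TE median was 0.05 with all columns. The immediate early RNA median was 0.18 without *Ireb2*+/+ replicate 2 and 0.62 with first runs alone. Medians over all genes tested were 0.0084 in RNA, −0.0049 in RPF and −0.0088 in TE.

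Of the 815 genes with an unadjusted p under 0.05 in RNA and the 762 in RPF, 85 were in both, and 78 of these had the same sign, 46 higher and 32 lower in the *Ireb2* line, a description of genes selected on both readouts. Over all 4423 genes with at least 20 CPM of RNA the line differences in RNA and RPF had Pearson's r of 0.443 and Spearman's rho of 0.116 across genes. These come from the same 6 mice and are not independent replicates. Wide differences weigh more in r than in the rank-based rho, and the widest here, that of *Dmbt1*, rested on a single liver. The value of r without it was not computed.

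**Figure D5:**
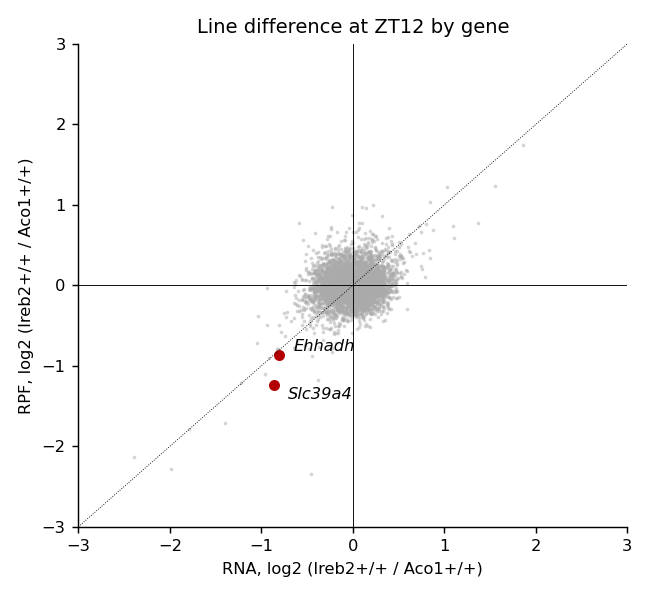
Line difference at ZT12 in RNA (x axis, log2 of the Ireb2 minus the Aco1 line) against that in RPF (y axis, log2) for genes with a mean RNA level of at least 20 CPM. Each point is a gene, the dotted line marks equal differences, red points are the called genes Ehhadh and Slc39a4 (Ncam2 is below 20 CPM), and 1 gene, Dmbt1, lies outside the axes of −3 to 3. Ehhadh at −0.80 and −0.86 and Slc39a4 at −0.87 and −1.24 lie on the side of the Aco1 line, where grey points that were not called lie further out.

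Mice of the same lines at ZT5 gave the same contrast in other animals. There 20 genes passed in RNA (0.187%), 325 in RPF (3.04%) and 153 in TE (1.43%). Without the liver that held acinar transcripts these counts were 0, 37 and 0. Of the genes with an unadjusted p under 0.05 at ZT12, the sign was the same at ZT5 for 244 of 389 higher and 290 of 426 lower genes in RNA (62.7% and 68.1%, against 55.9% of all genes). In RPF the same held for 222 of 344 and 285 of 418 (64.5% and 68.2%, against 57% of all genes). TE had the highest shares, with 437 of 592 and 376 of 549 (73.8% and 68.5%, against 58.4%). The test of the difference between timepoints passed for 0 genes in RNA (0%, with 757 or 7.08% at an unadjusted p under 0.05 and 1 gene with DESeq2), 6 in RPF (0.0561%) and 5 in TE (0.0467%).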

How the data were processed

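Frozen livers were homogenised singly, lysates were digested with RNase I and passed over size exclusion columns, and RPF and total RNA libraries were made after rRNA depletion. Per the labels and the methods, the authors trimmed reads (cutadapt 3.5), removed rRNA and tRNA reads with Bowtie2, mapped the rest with STAR (version 2.70f in the submitters' processing notes) to GRCm38 with Ensembl 100, and deposited raw counts per gene for each run, not normalized. The counting tool, its strand setting and the column names are not given in the sources used here, and the third column was read from its values as CDS. An all-zero and an unidentified column were seen too. Of the 25266 genes listed, 10696 passed filterByExpr (minimum count 10, minimum total 15).

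Runs of a library were summed. Runs of one library differed no more than counting would give (chi-square over its degrees of freedom 0.992 to 1.04), and mice of a group by 3.22 to 18.8. The 48 libraries were normalised in a single upper-quartile step and fitted with edgeR 4.0.16 (robust quasi-likelihood), with 8 groups sharing the spread. TE was tested in one model of both library types with a term for the mouse. Per-mouse TE used a prior count of 0.5, and distances between livers a pseudocount of 1. SE is the absolute log2 difference over the square root of F. Replicates are separate mice. The tests were checked on simulated data. Single values were compared by exact permutation.

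Genes were named by a rule: IRE transcripts, *Aco1*, *Ireb2* and *Nnt*; genes past the threshold without overlap, or otherwise the 5 with the smallest p a side; and up to 4 leading members of a list. Some genes are not reported here. Others were chosen after their values were seen, among them *Cyp4a10*, *Cyp4a14*, *Pck1* and *Dmbt1*. The groups compared, the lists and the rule were chosen with earlier results of these data known. Alternatives were TMM, DESeq2 1.42.0, no filter, a stricter filter (mean count 50), only the 6 or the 12 wild-type mice, first runs alone, all columns, each mouse left out, the replicate number as a block and, for TE, unpaired libraries and limma 3.58.1 (for ZT5 and the difference between timepoints these 2 were chosen after seeing the data). R 4.3.3, Python 3.11.15, NumPy 2.4.6, pandas 2.3.3 and Matplotlib 3.10.9 were used. Sequences are from RefSeq. CPM values carry counting error and, between mice, the spread given, and depth sets the limit for genes with few counts.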

Additional observations from a re-analysis of the deposited data

Results flagged for a closer look

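The line difference at ZT12 differed from that at ZT5, by a test of the difference itself in edgeR, for 6 genes in RPF and 5 in TE. In RPF the difference between timepoints (ZT12 minus ZT5, log2) was 2.20 for the histone gene *Hist1h2bc* (0.70 at ZT12, −1.50 at ZT5), −1.11 for *Ehhadh* (−0.86 and 0.25) and −0.88 for *Aldh4a1*, an enzyme of proline breakdown (−0.40 and 0.48). It was 1.86 for the ribosomal protein gene *Rps6* (0.49 and −1.37), 1.35 for *Rpl38* (0.46 and −0.89) and 1.86 for *Rpl23a* (0.57 and −1.29), with edgeR adjusted p from 0.0343 to 0.0492. In TE it was 1.42 for *Gabarap*, which takes part in autophagy (0.60 and −0.82), −0.89 for *Oplah*, 5-oxoprolinase (−0.49 and 0.40), 1.92 for *Rpl14* (0.55 and −1.37), 0.59 for *Gc*, the vitamin D-binding protein (0.36 and −0.23), and 0.98 for *Ddrgk1*, of the UFMylation pathway (0.30 and −0.68), with edgeR adjusted p from 0.0284 to 0.0428. *Ehhadh* was the one of these 11 that also passed at ZT12 alone. In the alternatives run the signs held for all 11, but *Ehhadh* passed in 12 of 20, *Hist1h2bc* in 12 of 19, *Aldh4a1* in 10 of 20, *Rps6* in 9 of 19, *Rpl38* in 8 of 19, *Rpl23a* in 7 of 20, *Gabarap* in 10 of 22, *Oplah* in 7 of 22 and *Rpl14*, *Gc* and *Ddrgk1* in 8 of 22 each. Without the ZT5 liver that held acinar transcripts, the RPF differences of *Hist1h2bc*, *Ehhadh*, *Aldh4a1* and *Rpl38* had an adjusted p of 0.0495, those of *Rps6* and *Rpl23a* 0.054, and the TE differences 0.0569 to 0.118. The part of that liver in these values was not tested further.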

How the results depend on the processing

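Genes called at ZT12 numbered 0 in RNA, 3 in RPF and 0 in TE. In RNA they were 1 with TMM, 1 with no filter, 7 with only the 6 mice, 3 with only the 12 wild-type mice and 11 with DESeq2; in RPF 5 with the 6 mice, 6 with the 12 wild-type mice and 5 with DESeq2; in TE 6 with TMM, 1 with no filter, 220 with the 6 mice, 15 with the 12 wild-type mice and 40 with DESeq2. With 1 mouse left out they ranged from 0 to 3 in RNA, 0 to 2 in RPF and 0 to 1 in TE. At ZT5 the 20 RNA calls became 11 with the stricter filter, 1 with first runs alone, 8 with all columns and 52 with DESeq2. The 325 RPF calls became 63 and 520 with first runs and DESeq2, and the 153 TE calls 230 with the stricter filter, 74 with first runs and 0 with unpaired libraries or limma, both chosen after seeing the data. A fit of only the 6 mice of ZT5, also chosen after seeing the data, called 12 genes in RNA and 68 in TE, and fewer in RPF too. Ranges without 1 mouse were 0 to 20, 1 to 1192 and 0 to 247. For the difference between timepoints the counts of 0, 6 and 5 in RNA, RPF and TE were 1, 89 and 8 with DESeq2, in RPF 2 with the stricter filter and 11 with the 12 wild-type mice, and in TE 0 with the stricter filter, 9 with the 12 wild-type mice and 0 with unpaired libraries or limma. Ranges without 1 mouse were 0 to 2, 0 to 53 and 0 to 18. The cause of these changes was not tested.

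The fits with the replicate number as a block used only the wild-type mice of the timepoints compared, with limma for TE. Their calls at ZT12 were 17 in RNA, 13 in RPF and 0 in TE. At ZT5 they were 34, 514 and 0, and for the difference between timepoints 1, 50 and 0. These fits therefore differ from the fit of all mice in more than the block. Deviations of mice with the same number correlated at −0.0588, 0.0704 and −0.0582 in RNA and −0.153, −0.00558 and 0.0344 in RPF. Mice with different numbers reached 0.173 in RNA and 0.218 in RPF. Such correlations cannot tell whether mice of one number were handled together.

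Differences near 0 changed sign. *Aco1* RNA was 0.011 and *Ireb2* RPF −0.025 with first runs, and *Aco1* RPF −0.0023 with all columns. Without 1 mouse, *Aco1* RNA ranged from −0.077 to 0.019 and *Aco1* RPF from −0.058 to 0.061. The RPF and TE medians of ribosomal protein mRNAs kept their sign in all alternatives run (0.32 to 0.68 and 0.41 to 0.78), as did the RPF median of the fasting list (−0.45 to −0.20), while its RNA median ran from −0.30 to 0.04.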

Other observations

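*Dmbt1*, a mucin-like glycoprotein of epithelia chosen after its values were seen, had the widest difference among genes with at least 20 CPM of RNA, and it rested on 1 liver. Its RNA stood at 161 CPM in *Ireb2*+/+ replicate 3 and at 1.37 CPM or less in the other 5 mice. Adipocyte markers, of which 2 of 6 listed passed the filter, had their highest sums in *Ireb2*+/+ replicate 2, not replicate 3. These were 10.5 CPM of RNA and 20.5 CPM of RPF, against medians of 1.00 and 3.12 CPM in that group. Without replicate 2 the median difference of the list went from 1.59 to −0.33 in RNA and from 1.005 to −0.17 in RPF. Cholangiocyte markers reached 52.8 CPM of RNA in the *Ireb2*+/+ group and 35.4 CPM in the *Aco1*+/+ group.

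The share of counts in each region did not separate the lines. RNA counts in the 3′ UTR column were 26.6 ± 1.12% in *Aco1*+/+ and 24.9 ± 0.873% in *Ireb2*+/+ livers (exact permutation p = 0.2), and RPF counts in the 5′ UTR column 2.19 ± 0.274% and 1.99 ± 0.518% (exact permutation p = 0.6). The 10 most counted genes held 25.9 ± 0.935% and 26.1 ± 0.599% of RPF counts in the CDS.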
